A study of Mus musculus with 7 samples.

Results

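Messenger RNA levels of 10 genes were examined in 7 mouse mammary tumour libraries: the carbonyl reductases Cbr1, Cbr2 and Cbr3, and 7 genes known as targets of the transcription factor Nrf2, namely Nqo1, Hmox1, Gclm, Gclc, Txnrd1, Srxn1 and Slc7a11. The genes were taken by symbol from the 55487 entries of the deposited expression table, and all 10 were found. The list was drawn up with earlier results of the same libraries known, so its values in tumours given nocodazole-cell vesicles against saline are a description and carry no test.

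All tumours grew from 4T1-12b(luc) mammary carcinoma cells in the mammary fat pad of wild-type BALB/c mice. When tumours were about 150 mm3, 6 intratumoral injections of 50 µl were given every other day, and the labels give day 12. The saline group (3 libraries) received saline. The Cont sEV group (1 library) received small extracellular vesicles from DMSO-treated 4T1 cells, and the TIS sEV group (3 libraries) received vesicles from 4T1 cells treated with nocodazole, a microtubule poison, at 100 ng/ml. Donor cells were treated for 72 h and then released from the drug for 72 h, and the series title calls the nocodazole vesicles derived from therapy-induced senescence. The vesicle columns of the table carry abbreviations that were read as the control and the nocodazole vesicles, and every vesicle comparison rests on that reading. The labels number the replicates and do not say that they are separate animals, so every SD, SE and p here rests on the variation among libraries that may be technical replicates.

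Nrf2, encoded by Nfe2l2, is held low by Keap1, an adaptor that hands it to a cullin-based ubiquitin ligase. Oxidants and electrophiles block that step, and Nrf2 then pairs with small Maf proteins at antioxidant response elements of genes for glutathione synthesis, thioredoxin recycling, quinone reduction and haem breakdown. Carbonyl reductases are short-chain dehydrogenases that use NADPH to reduce quinones, aldehydes and ketones, and Cbr3 and Cbr1 have been described as Nrf2-responsive in some cell types. In tumours both malignant and stromal cells, macrophages among them, express such genes. In bulk tissue fewer cells of a type and less RNA per cell cannot be told apart.

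The promoters of 8 of the 10 genes were found in RefSeq (GRCm38.p6), as windows from 250 bases before to 50 bases after the start of transcription. They were searched on both strands for the antioxidant response element core TGACNNNGC and for its variant TGAGNNNGC. The core was present in 12.4% and the variant in 17.6% of 32851 promoter windows of that length, and 27.8% held at least 1 of them, so a match is common. Of the 8 genes, 4 had a match: Srxn1 with both forms, Gclm and Txnrd1 with the core and Slc7a11 with the variant. The 27.8% counts windows, and of the 10 windows of these 8 genes 4 held a match. The windows of Cbr1, Cbr2, Cbr3 and Nqo1 had neither, which says only that these letters are not in these windows. Below, matches are in capitals in the windows of 3 genes that have them, beside those of Cbr2 and Cbr3, the members whose levels stood apart. The windows are Srxn1 at chr2:152105274-152105573 (plus strand), Gclm at chr3:122245307-122245606 (plus strand), Txnrd1 at chr10:82858956-82859255 (plus strand, 1 of its 3 annotated starts), Cbr2 at chr11:120731972-120732271 (minus strand) and Cbr3 at chr16:93682969-93683268 (plus strand).
Srxn1: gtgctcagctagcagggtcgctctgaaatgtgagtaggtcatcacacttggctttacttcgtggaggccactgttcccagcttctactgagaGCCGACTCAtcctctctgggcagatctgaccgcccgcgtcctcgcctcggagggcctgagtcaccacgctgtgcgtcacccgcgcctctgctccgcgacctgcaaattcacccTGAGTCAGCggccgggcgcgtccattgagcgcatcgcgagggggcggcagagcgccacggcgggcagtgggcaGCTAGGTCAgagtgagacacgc
Gclm: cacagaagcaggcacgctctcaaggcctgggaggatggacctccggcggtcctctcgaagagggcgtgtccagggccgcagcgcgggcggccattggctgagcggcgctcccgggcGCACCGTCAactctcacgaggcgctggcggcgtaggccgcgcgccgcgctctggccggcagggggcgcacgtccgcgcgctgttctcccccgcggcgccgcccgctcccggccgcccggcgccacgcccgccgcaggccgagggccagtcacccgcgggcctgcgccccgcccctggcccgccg
Txnrd1: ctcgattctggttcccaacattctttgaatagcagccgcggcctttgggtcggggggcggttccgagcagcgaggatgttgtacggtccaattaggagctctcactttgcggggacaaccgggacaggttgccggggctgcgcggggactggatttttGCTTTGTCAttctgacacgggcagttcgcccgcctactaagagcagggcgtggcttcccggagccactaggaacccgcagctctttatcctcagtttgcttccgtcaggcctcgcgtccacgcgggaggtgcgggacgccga
Cbr2: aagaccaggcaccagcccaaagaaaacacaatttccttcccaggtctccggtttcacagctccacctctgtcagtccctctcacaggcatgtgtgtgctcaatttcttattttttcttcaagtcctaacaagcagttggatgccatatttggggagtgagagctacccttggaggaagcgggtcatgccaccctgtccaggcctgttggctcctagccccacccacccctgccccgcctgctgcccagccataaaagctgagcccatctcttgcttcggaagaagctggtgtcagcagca
Cbr3: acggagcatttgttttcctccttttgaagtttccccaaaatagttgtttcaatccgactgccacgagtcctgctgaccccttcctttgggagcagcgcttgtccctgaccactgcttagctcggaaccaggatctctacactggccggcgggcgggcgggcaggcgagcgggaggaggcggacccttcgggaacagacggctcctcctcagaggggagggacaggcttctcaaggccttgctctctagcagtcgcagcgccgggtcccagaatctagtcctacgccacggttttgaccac
The Srxn1 window held 3 matches. The match TGAGTCAGC, which starts 45 bases before the start of transcription, also contains the AP-1 motif TGAGTCA, so the letters are shared by both motifs. The match in Gclm, GCACCGTCA, begins 134 bases before the start and that in Txnrd1, GCTTTGTCA, 92 bases before it, both on the opposite strand.

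Levels are given in TPM, a length-corrected share of the transcripts of each library, and the read depth behind them is unknown. TIS sEV replicate 2 stood apart: 22.9% of its TPM fell on nuclear ribosomal RNA genes, where the 6 other libraries had 0.807 to 2.40%, and 8909 of its genes reached 1 TPM, where the others had 11378 to 12328. The TIS sEV minus saline difference of the median gene was -0.62 on the log2(TPM + 1) scale. The corresponding shift was -0.33 for Cont sEV minus saline and -0.29 for TIS sEV minus Cont sEV. Differences are given relative to these median shifts, with the standard error (SE) of the fitted difference. Every p and every call from limma tests the fitted difference before the shift is taken off. A p printed beside a relative difference therefore does not test that relative value. Each SE of the main fit came from a trend over genes of like level, so a gene's own spread did not enter it. The epithelial keratin Krt18 was present at 257 to 2119 TPM and Epcam at 18.6 to 158 TPM, so epithelial tumour markers were detected in all 7 libraries.

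Cbr2 and Cbr3 were the members that were higher in all 3 TIS sEV libraries than in all 3 saline libraries. Their mean TPM was 4.11-fold and 4.75-fold that of saline, while the remaining reductase, Cbr1, and the 7 Nrf2 targets overlapped between the groups. Among all 12058 tested genes, 0.862% were higher in every TIS sEV library than in every saline library and 13.5% were lower in every one. After TPM had been divided by size factors (the median of ratios over genes, which brings the median gene's shift close to 0) these shares were 9.35% and 15.1%, and Cbr2 and Cbr3 were still the 2 members above all saline libraries. Because the list was chosen with this comparison known, nothing is read from the members' count.

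**Figure D1:**
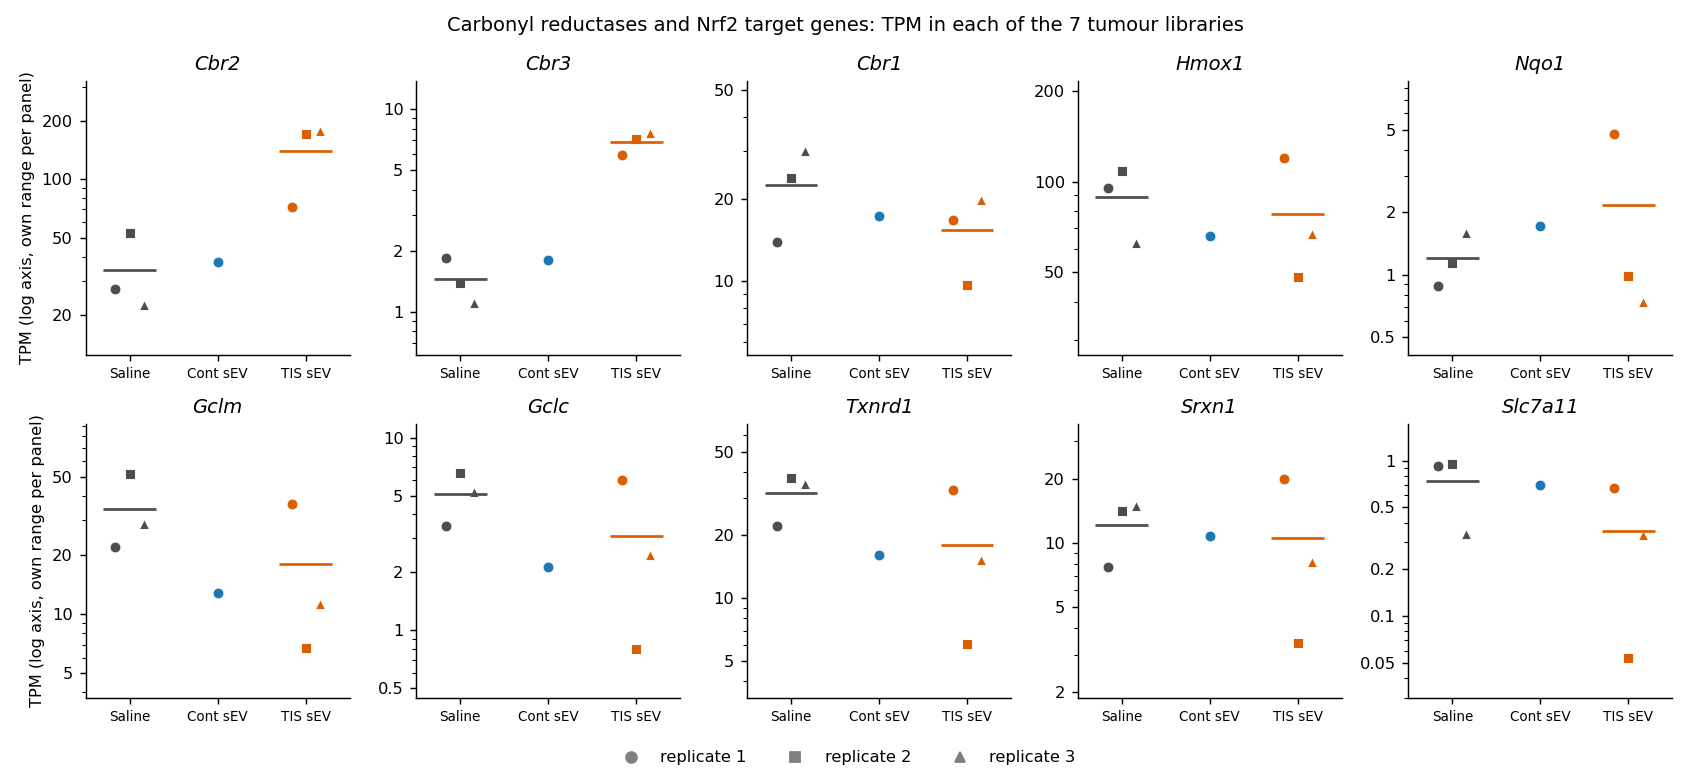
TPM (log axis, own range in each panel) of the 10 genes in each library, with saline in grey, Cont sEV in blue and TIS sEV in orange. Symbols mark the replicate number and bars the mean of groups of 3. The TIS sEV points of Cbr2 (72.2 to 178 TPM) and Cbr3 (5.93 to 7.63 TPM) lie above all saline points, and the groups overlap in the other 8 panels.

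Cbr2 (ENSMUSG00000025150.10, chr11:120729489-120732114, minus strand) encodes a tetrameric carbonyl reductase best known from lung and fat. Its level was 27.2, 53.2 and 22.5 TPM in saline replicates 1 to 3, 37.5 TPM in Cont sEV and 72.2, 172 and 178 TPM in TIS sEV replicates 1 to 3. The Cont sEV library lay within the saline range, and the lowest TIS sEV library exceeded the highest saline library. The group means were 34.3 ± 16.5 TPM in saline and 141 ± 59.5 TPM in TIS sEV (SD, n = 3 each). The difference was 2.61 (SE 0.64) relative to the median gene, and 1.99 without TIS sEV replicate 2. Divided by size factors, the TIS sEV values spread further, to 58.9, 443 and 176, against 15.3 to 36.8 in saline, and the highest of them was that of TIS sEV replicate 2.

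Cbr3 (ENSMUSG00000022947.8, chr16:93683215-93690990, plus strand) encodes a monomeric reductase closely related to Cbr1. It measured 1.85, 1.38 and 1.11 TPM in saline, 1.79 TPM in Cont sEV and 5.93, 7.08 and 7.63 TPM in TIS sEV. The 4 libraries without nocodazole-cell vesicles were all below 2 TPM and the 3 TIS sEV libraries were all above 5 TPM. The mean was 1.45 ± 0.38 TPM in saline and 6.88 ± 0.87 TPM in TIS sEV (SD, n = 3 each), a relative difference of 2.31 (SE 0.55), or 1.87 without TIS sEV replicate 2. Its level was below that of Cbr2 in every library, and the ratio of Cbr2 to Cbr3 ranged from 12.2 to 38.4.

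Cbr1 (ENSMUSG00000051483.9, chr16:93605853-93610505, plus strand) lies 72709 bases from Cbr3 and encodes the main cytosolic carbonyl reductase. It measured 13.9, 23.8 and 30.0 TPM in saline, 17.4 TPM in Cont sEV and 16.8, 9.73 and 19.8 TPM in TIS sEV, and the groups overlapped. The means were 22.6 ± 8.10 and 15.5 ± 5.19 TPM (SD, n = 3 each), and the relative difference was 0.11 (SE 0.66). The coding sequences of Cbr1 and Cbr3 were 77.5% identical over 834 bases each, and their transcripts shared 29 stretches of 31 bases, out of 1254 in Cbr3, so the split of some reads between these paralogues is uncertain.

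Ratios taken within a library do not depend on its scaling. The ratios given here and further on were chosen after the values were seen. Cbr2 to Cbr1 was 1.95, 2.23 and 0.751 in saline, 2.16 in Cont sEV and 4.29, 17.7 and 8.99 in TIS sEV. Cbr3 to Cbr1 was 0.133, 0.0581 and 0.0369 in saline, 0.103 in Cont sEV and 0.353, 0.727 and 0.385 in TIS sEV. Both ratios were higher in every TIS sEV library than in the 4 other libraries.

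**Figure D2:**
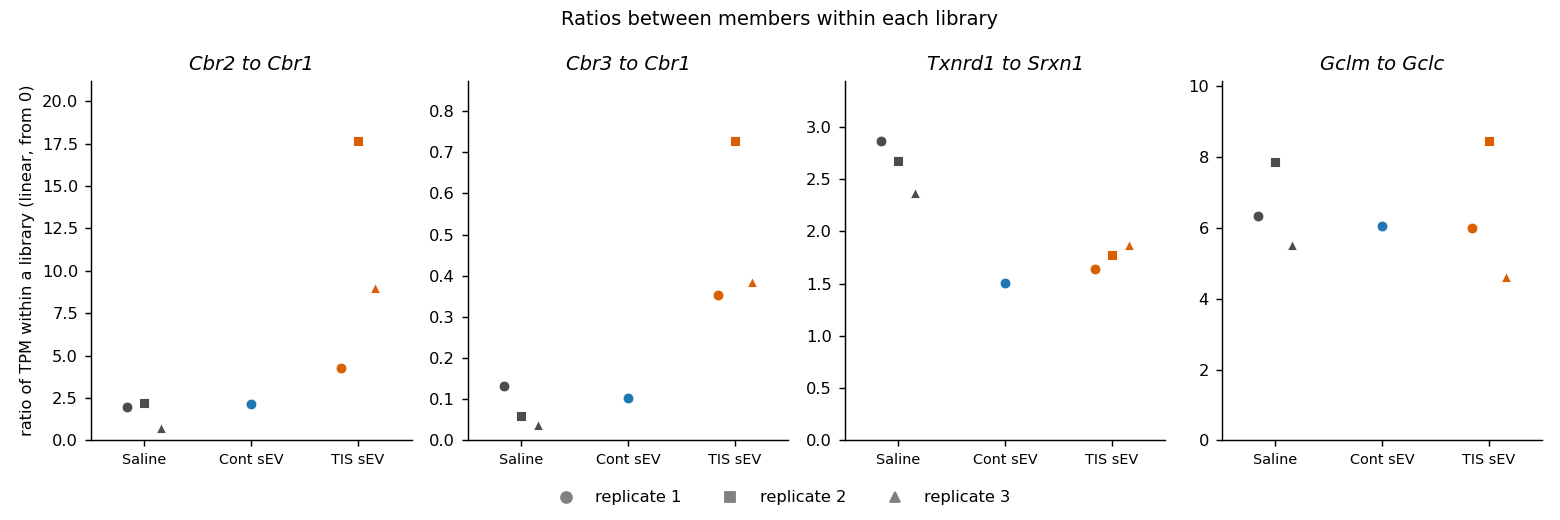
Ratios of TPM between members within each library (linear axes from 0), by group, with symbols for the replicate number. Cbr2 to Cbr1 and Cbr3 to Cbr1 are higher in all 3 TIS sEV libraries than in the 3 saline libraries and the Cont sEV library, Txnrd1 to Srxn1 is lower in all 4 vesicle libraries than in saline, and Gclm to Gclc overlaps between groups.

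Hmox1 (chr8:75093621-75100589, plus strand) encodes haem oxygenase 1, which breaks haem down to biliverdin, iron and carbon monoxide. It was the most abundant member in 5 of 7 libraries, and Cbr2 exceeded it in TIS sEV replicates 2 and 3. Its level was 95.1, 108 and 62.5 TPM in saline, 65.9 TPM in Cont sEV and 119, 48.1 and 67.3 TPM in TIS sEV. The groups overlapped, with means of 88.6 ± 23.5 and 78.3 ± 36.9 TPM (SD, n = 3 each) and a relative difference of 0.38 (SE 0.63). Nqo1 (chr8:107388225-107403206, minus strand), which encodes a quinone reductase often used as the marker of Nrf2 activity, was low, at 0.88, 1.15 and 1.59 TPM in saline and 1.72 TPM in Cont sEV. In TIS sEV it was 4.78 TPM in replicate 1 and 0.98 and 0.74 TPM in replicates 2 and 3. Only replicate 1 lay above the saline range. The relative difference was 0.93 (SE 0.43), and 0.66 without that library, where the pair left lay within or below the saline range in TPM.

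Gclm (chr3:122245557-122270732, plus strand) and Gclc (chr9:77754535-77794485, plus strand) encode the modifier and catalytic subunits of glutamate-cysteine ligase, the first step of glutathione synthesis. Gclm measured 22.0, 51.2 and 28.8 TPM in saline, 12.8 TPM in Cont sEV and 36.1, 6.76 and 11.3 TPM in TIS sEV. Gclc measured 3.48, 6.52 and 5.21 TPM in saline, 2.12 TPM in Cont sEV and 6.04, 0.80 and 2.44 TPM in TIS sEV. For both subunits, TIS sEV replicate 1 fell inside the saline range and the other 3 vesicle libraries fell below it. The ratio of Gclm to Gclc stayed between 4.61 and 8.46 over the 7 libraries, a 1.83-fold range. In TPM the level of each gene varied more than 7-fold, with TIS sEV replicate 2 lowest. Divided by size factors the levels varied less, from 11.1 to 35.4 for Gclm and from 2.06 to 4.93 for Gclc. Relative differences in TIS sEV were -0.50 (SE 0.65) for Gclm and -0.14 (SE 0.56) for Gclc.

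Txnrd1 (chr10:82833951-82897712, plus strand) encodes cytosolic thioredoxin reductase, and Srxn1 (chr2:152105516-152111376, plus strand) encodes sulfiredoxin, which repairs overoxidised peroxiredoxins. Txnrd1 measured 22.1, 37.7 and 35.2 TPM in saline, 16.2 TPM in Cont sEV and 32.8, 6.01 and 15.2 TPM in TIS sEV, with a relative difference of -0.41 (SE 0.65). Srxn1 measured 7.73, 14.1 and 14.9 TPM in saline, 10.7 TPM in Cont sEV and 20.0, 3.39 and 8.13 TPM in TIS sEV, with a relative difference of 0.18 (SE 0.66). Neither gene separated the groups, but their ratio did: Txnrd1 to Srxn1 was 2.86, 2.68 and 2.37 in saline, 1.5 in Cont sEV and 1.64, 1.77 and 1.87 in TIS sEV. This ratio was lower in all 4 vesicle libraries than in all 3 saline libraries. Slc7a11 (chr3:49892526-50443614, minus strand), the cystine importer that feeds glutathione synthesis, was under 1 TPM in every library, at 0.92, 0.95 and 0.34 TPM in saline, 0.70 TPM in Cont sEV and 0.67, 0.05 and 0.33 TPM in TIS sEV, and did not pass the filter on low values.

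The test covered the 9 members that reached 1 TPM in at least 3 libraries. In limma's fit over all genes, 0 of the 9 passed an adjusted p of 0.05 for TIS sEV against saline, where 0.514% of all genes tested did. An unadjusted p under 0.05 was found for 2 members, Cbr2 and Cbr3, and for 10.3% of all genes tested. Leaving out TIS sEV replicate 1 or TIS sEV replicate 2 brought both past the threshold, with 0.846% and 0.489% of all genes called higher in those fits, and none of the other 13 alternative settings did. The median of the 9 relative differences was 0.18, near the 0 that all genes have by construction. These values describe the members and support nothing, since the list was chosen on this comparison.

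Against saline, the single Cont sEV library gave relative differences of 0.55 (SE 0.90) for Cbr2, 0.53 (SE 0.78) for Cbr3 and 0.03 (SE 0.93) for Cbr1. Its Cbr2 and Cbr3 values lay within the saline range. Of the 10 members, 6 lay within that range, 1 (Nqo1) above it and 3 (Gclm, Gclc and Txnrd1) below it, against 39.5%, 14.1% and 46.4% of all genes tested. In limma's fit, 0 of 9 members passed an adjusted p of 0.05, where 0.207% of all genes were called, and 0 had an unadjusted p under 0.05, where 2.33% of all genes did.

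Between the vesicle groups, Cbr2 and Cbr3 were higher in all 3 TIS sEV libraries than in the Cont sEV library, by 2.06 (SE 0.90) and 1.78 (SE 0.78) relative to the median gene. Without TIS sEV replicate 2 the values were 1.43 and 1.33. Cont sEV was below the TIS sEV range for these 2 members and for 4.59% of all genes tested, above it for Slc7a11 (20% of all genes tested) and within it for the 7 other members (75.4%). In limma's fit, 0 of 9 members passed an adjusted p of 0.05, where 0.224% of all genes were called, and 1 had an unadjusted p under 0.05, where 1.73% of all genes did. All comparisons with saline share the same 3 saline libraries, and both that involve Cont sEV share its 1 library, so they are not independent of each other.

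**Figure D3:**
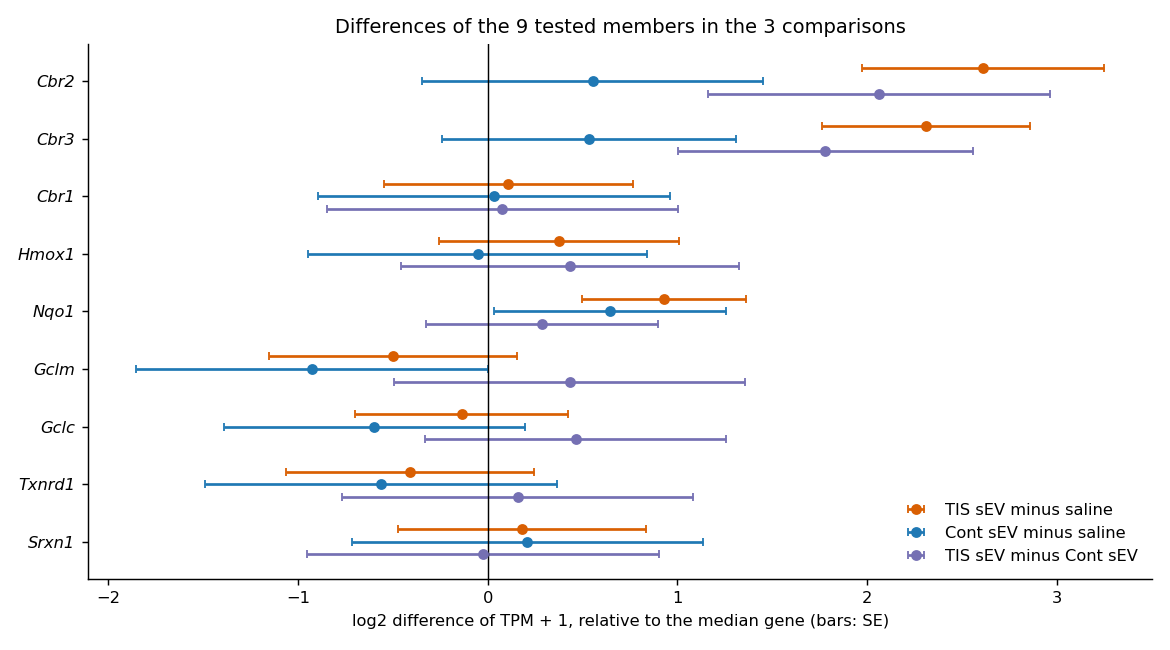
Fitted log2 differences of TPM + 1 relative to the median gene (points) with their SE (bars) for the 9 tested members in the 3 comparisons. Cbr2 and Cbr3 lie at 2.61 and 2.31 in TIS sEV minus saline, 2.06 and 1.78 in TIS sEV minus Cont sEV, and 0.55 and 0.53 in Cont sEV minus saline, while Cbr1 lies near 0 in all 3.

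Across the 7 libraries, on size-factor scaled log2 values, Cbr2 and Cbr3 had a Pearson r of 0.96, and 0.91 without TIS sEV replicate 2. Gclc and Txnrd1 had an r of 0.97, Gclm and Txnrd1 0.90, and Gclm and Gclc 0.88, and Nqo1 and Srxn1 had 0.75 over 7 libraries and 0.94 without TIS sEV replicate 2. The r of Cbr2 or Cbr3 with Gclm, Gclc or Txnrd1 lay between -0.64 and -0.34. Without TIS sEV replicate 2 it lay between -0.52 and -0.18, with the pair of Cbr2 and Gclc at -0.27 (from -0.53) and that of Cbr3 and Gclc at -0.18 (from -0.48). These are descriptions, and the libraries share groups and the scaling of TIS sEV replicate 2, whose size factor was 0.388 against 0.988 to 1.47 for the others.

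Of 7297 genes compared, the gene most like Cbr2 was Dcxr (r = 0.988, and 0.974 without TIS sEV replicate 2), which was also among the 5 genes most like Cbr3 (r = 0.982). It encodes dicarbonyl and L-xylulose reductase, another enzyme of the short-chain dehydrogenase family. Dcxr lies on chromosome 11 at 120725399-120727281, on the same strand as Cbr2, 2207 bases away with no annotated gene between. The coding sequences of Cbr2 and Dcxr, 735 bases each, were 69.3% identical, against 49.6% for Cbr2 and Cbr1. Their transcripts shared no stretch of 31 bases, and the longest exact run in common was 16 bases.

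Dcxr measured 12.3, 19.0 and 15.3 TPM in saline, 13.1 TPM in Cont sEV and 23.6, 17.9 and 27.1 TPM in TIS sEV. TIS sEV replicate 2 overlapped saline in TPM. After division by size factors the values were 12.5, 13.1 and 10.4 in saline, 12.8 in Cont sEV and 19.3, 46.1 and 26.7 in TIS sEV, which no longer overlapped. The relative difference was 1.15 (SE 0.66), and the fitted difference before the shift was 0.53 (limma adjusted p = 0.624). Over the 15 alternatives the adjusted p for Dcxr ranged from 0.315 to 0.879. The next genes for Cbr2 were Tnfsf12 (r = 0.986), Iscu (0.985), Fam213b (0.985) and Spi1 (0.982), the last a transcription factor of myeloid cells. Their r was 0.966, 0.964, 0.980 and 0.968 without TIS sEV replicate 2. In TPM, Tnfsf12 and Fam213b were above saline in all 3 TIS sEV libraries, and Spi1 barely so (lowest 23.49 against 23.46 TPM). Iscu overlapped saline, with 30.4 TPM in TIS sEV replicate 2. For Cbr3 the genes beside Dcxr were Rusc1 (0.990), Rab32 (0.985), Chchd10 (0.981) and Dynlrb1 (0.978). Without TIS sEV replicate 2 these had r of 0.978, 0.964, 0.971 and 0.953. In TPM, Chchd10 was above saline in all 3 TIS sEV libraries, while Rusc1, Rab32 and Dynlrb1 overlapped saline. For Hmox1 the most alike were Map6 (0.970), Nfkbia (0.951), Rarres2 (0.940), Rpl21-ps10 (0.936) and Fez2 (0.936). The highest r of 7297 genes over 7 libraries is high through the choice itself.

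**Figure D4:**
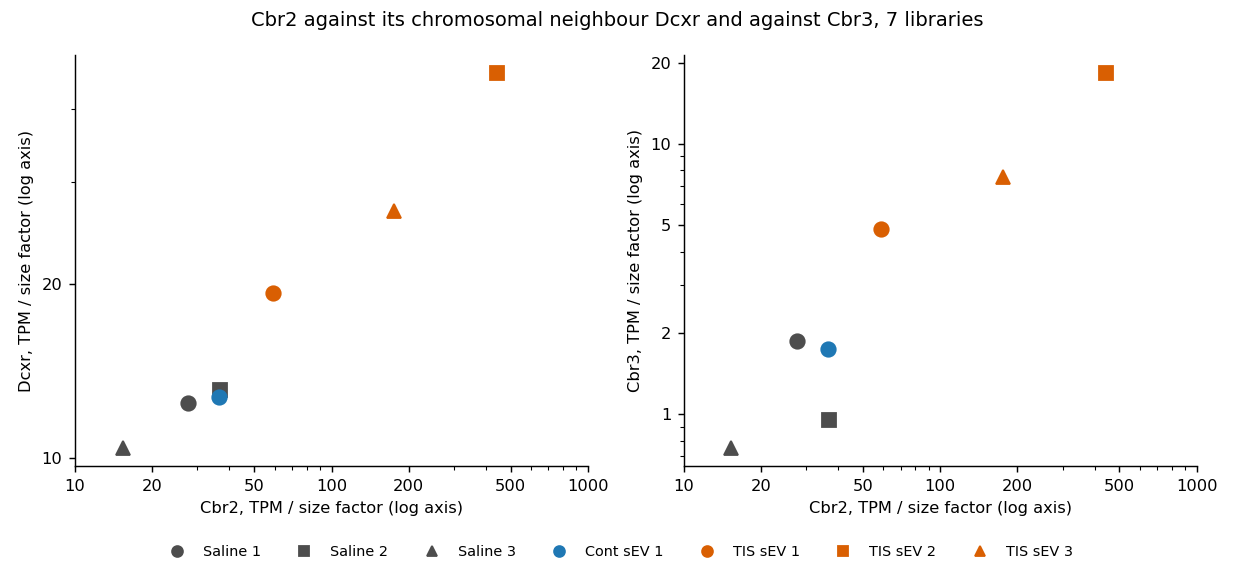
Cbr2 against its chromosomal neighbour Dcxr (left) and against Cbr3 (right) in the 7 libraries, as TPM divided by size factors on log axes. Colours mark the group and symbols the replicate. The 3 TIS sEV libraries lie above and to the right of the other 4, and TIS sEV replicate 2 is the most extreme point in both panels (443 for Cbr2, 46.1 for Dcxr, 18.2 for Cbr3).

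The upstream regulators were considered next. Of 10 genes of the Nrf2 control machinery, 0 passed limma's adjusted p of 0.05 for TIS sEV against saline (adjusted p 0.47 to 0.80), and 2 had an unadjusted p under 0.05. Among all genes tested, the shares were 0.514% and 10.3%. The list's median relative difference was 0.00. Nfe2l2, which encodes Nrf2 itself, was the 1 of 10 regulators below all saline libraries in every TIS sEV library, which held for 13.5% of all genes tested (15.1% after division by size factors). It measured 36.9, 57.5 and 55.2 TPM in saline, 17.2 TPM in Cont sEV and 29.7, 6.77 and 20.0 TPM in TIS sEV. All 4 vesicle libraries were below all 3 saline libraries, a pattern that held after division by size factors (37.4, 39.8 and 37.6 in saline against 16.7 in Cont sEV and 24.2, 17.5 and 19.7 in TIS sEV). The relative difference for TIS sEV was -0.93 (SE 0.65). The fitted difference before the shift, -1.55, did not pass the test (limma adjusted p = 0.470). Keap1, the inhibitor, averaged 29.3 ± 10.1 TPM in saline and 19.0 ± 11.8 TPM in TIS sEV (SD, n = 3 each). Its relative difference was -0.19, and its fitted difference before the shift was -0.81 (limma adjusted p = 0.508). The most abundant regulators by mean TPM were Sqstm1, the autophagy adaptor that binds Keap1 (relative difference 0.35), Rbx1, a subunit of the ligase (0.37), and Nfe2l1, an Nrf2 relative (-0.62), followed by Nfe2l2.

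Of 39 further Nrf2 targets, 33 were tested, 0 passed limma's adjusted p of 0.05 (adjusted p 0.476 to 0.989), and 3 had an unadjusted p under 0.05, against 0.514% and 10.3% of all genes tested. Of these 33, 25 lay above the median gene and 8 below, where 50% of all genes lie above it, and the median relative difference was 0.30. The Cont sEV library against saline gave nearly the same, with 24 above, 9 below and a median of 0.29. Between TIS sEV and Cont sEV, 17 lay above and 16 below, with a median of 0.0022. The 4 most abundant were the ferritin subunits Fth1 and Ftl1, thioredoxin Txn1 and peroxiredoxin Prdx1. Fth1 averaged 5442 ± 935 TPM in saline and 4131 ± 906 TPM in TIS sEV, and Ftl1 3472 ± 267 and 3807 ± 1409 TPM (SD, n = 3 each). Txn1 and Prdx1 had relative differences of 0.30 and 0.10. None of these 4 passed the test.

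The 4 further targets named next were chosen after their values were seen, because their groups did not overlap in TPM. Of the 33 tested, 2 were higher in this way in TPM and 2 lower, against 0.862% and 13.5% of all genes tested. Gstm1, a glutathione transferase, measured 4.01, 2.97 and 3.34 TPM in saline, 7.35 TPM in Cont sEV and 9.71, 8.07 and 11.1 TPM in TIS sEV. All 4 vesicle libraries exceeded saline. For TIS sEV the relative difference was 1.87 (SE 0.63), and the fitted difference before the shift was 1.26 (limma adjusted p = 0.476). Gstm4, its paralogue, was also above saline in all 3 TIS sEV libraries in TPM (0.88 to 1.15 against 0.52 to 0.77), but its groups overlapped after division by size factors. Gsr, glutathione reductase, and Ugdh, which makes the sugar donor for glucuronidation, were below all saline libraries in all 3 TIS sEV libraries. Their relative differences were -0.90 and -0.82. Before the shift the fitted differences were -1.51 and -1.44 (limma adjusted p = 0.476 for both). Ugdh overlapped after division by size factors. On that scale more targets were above all saline libraries in all TIS sEV libraries: Gstm1, Gstm2, Gstm5, Gstp1, Txn1, Prdx6, Tkt and Blvrb. Those below were Gsr and Cat. The shares of all genes tested on that scale were 9.35% higher and 15.1% lower, and the difference from these shares was not tested.

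Of 20 other carbonyl-reducing or aldehyde-oxidising enzymes listed, 19 were found and 14 tested. In limma's fit 0 of 14 passed an adjusted p of 0.05 for TIS sEV against saline (adjusted p 0.476 to 0.882), and 1 had an unadjusted p under 0.05. Among all genes tested, the shares were 0.514% and 10.3%. The list's median relative difference was 0.26. The most abundant were the aldo-keto reductases Akr1a1 and Akr1b3 (relative differences 0.79 and 1.03), mitochondrial aldehyde dehydrogenase Aldh2 (-0.33) and the formaldehyde-clearing Adh5 (-0.30). None of the 14 separated all TIS sEV libraries from all saline libraries in TPM, where 0.862% of all genes tested were higher in this way and 13.5% lower. After division by size factors some did, with Dcxr, Akr1b3 and Hsd11b1 among those higher. On that scale 9.35% of all genes tested were higher in this way and 15.1% lower. For all 3 lists the count of called genes was 0 in each of the 15 alternative settings for this comparison. With no filter, size factors, protein-coding TPM or quantile normalization 0 of all genes were called, so the lists' 0 there carries no information. In the other alternatives 7 to 353 of all genes tested were called.

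**Figure D5:**
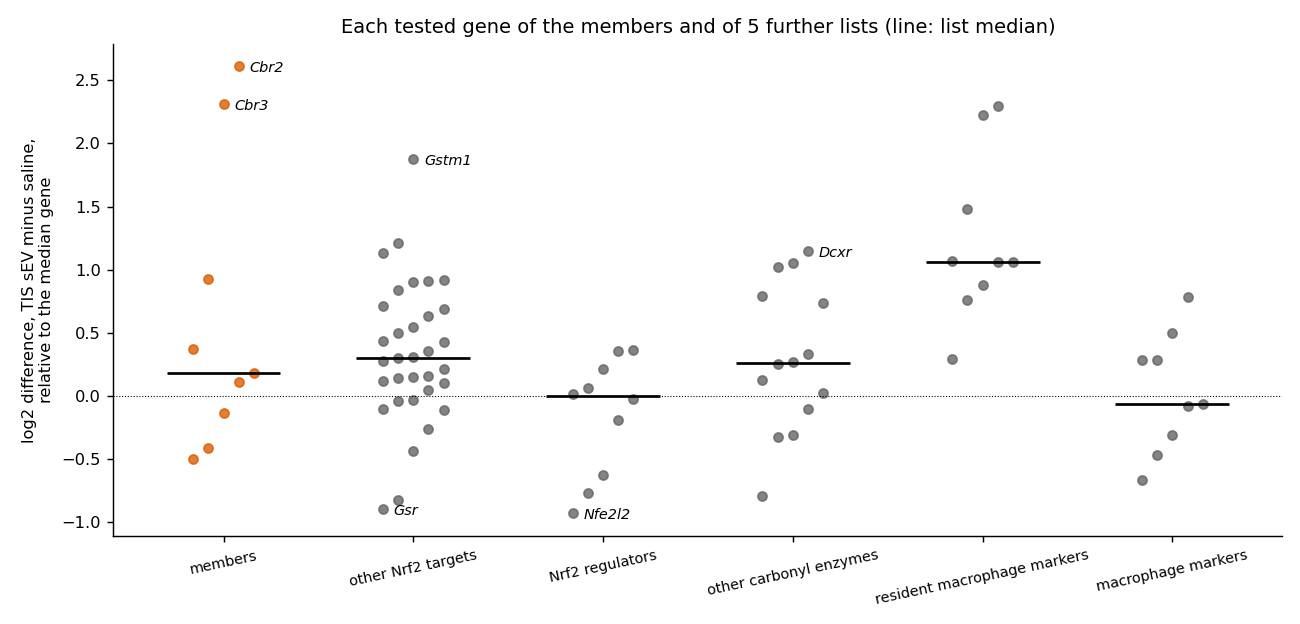
Log2 difference of TIS sEV minus saline relative to the median gene (dotted line at 0) for each tested gene of the members (orange) and of 5 further lists (grey: other Nrf2 targets, Nrf2 regulators, other carbonyl enzymes, resident macrophage and general macrophage markers), with a line at each list's median. Cbr2 (2.61) and Cbr3 (2.31) lie above every gene of the other Nrf2 target, regulator and carbonyl enzyme lists, and the resident macrophage markers have a median of 1.06, the highest of the 6 lists plotted.

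Markers of other cell types were measured beside these genes. For all marker lists, the shares over all genes tested were 0.514% past limma's adjusted p and 10.3% at an unadjusted p under 0.05. Of 12 resident macrophage markers 9 were tested, all 9 lay above the median gene with a median of 1.06, and 0 passed limma's adjusted p (2 at an unadjusted p under 0.05). Cd163, a scavenger receptor of such macrophages, measured 4.46, 17.1 and 2.60 TPM in saline, 5.80 TPM in Cont sEV and 18.9, 32.5 and 16.5 TPM in TIS sEV. The markers' summed TPM was 139 to 354 in saline, 257 in Cont sEV and 250 to 396 in TIS sEV, so the groups overlapped. Divided by size factors, the sums were 94.4 to 244 in saline, 249 in Cont sEV and 252, 646 and 390 in TIS sEV replicates 1 to 3, which did not overlap saline, and the Cont sEV sum also lay above saline. Cd163 on that scale was 1.77 to 11.8 in saline and 15.5, 83.7 and 16.2 in TIS sEV, again without overlap. None of the 12 was at 0 in any library, though Timd4 stayed at or below 0.32 TPM.

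General macrophage markers had a median of -0.06 and summed to 596 to 1969 TPM in saline, 1171 in Cont sEV and 551 to 1521 in TIS sEV. Of 8 adipocyte markers only Fabp4 and Cfd were tested. Cfd was 0.18, 37.9 and 0.54 TPM in TIS sEV replicates 1 to 3, where Cbr2 was 72.2, 172 and 178 TPM. The adipocyte sum was 14.1 to 24.3 TPM in saline, 28.5 in Cont sEV and 9.43, 73.8 and 39.7 in TIS sEV replicates 1 to 3, and Adipoq was at 0 in TIS sEV replicate 1. Divided by size factors, the adipocyte sum was 11.8 to 16.6 in saline and 7.69, 190.2 and 39.1 in TIS sEV, and it still overlapped. Medians were 1.39 for the 2 tested adipocyte markers (1 at an unadjusted p under 0.05 in limma, 0 past the adjusted threshold), -0.46 for epithelial, 0.13 for fibroblast, 0.42 for endothelial, -0.15 for erythroid, -0.01 for neutrophil and 0.66 for lymphocyte markers. Lymphocyte markers, like the resident macrophage markers, had scaled sums that did not overlap, at 25.0 to 30.8 in saline and 44.6 to 87.4 in TIS sEV. The 1 gene called among them was Jchain of plasma cells (relative difference 2.35, limma adjusted p = 0.0124). The part of any of these cell types in the Cbr2 and Cbr3 values was not tested.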

How the data were processed

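Total RNA of tumours was sequenced in 7 libraries. The authors deposited 1 table of TPM per gene, made with FastQC 0.11.9, Trim Galore 0.6.6 and Salmon 1.4.0 on GRCm38.p6, and their notes also name DESeq2 1.28.0, per the submitters' processing notes. The annotation, and how transcripts were summed, were not given in the sources used here. Symbols and coordinates came from GENCODE M21, which held 55227 of 55487 gene identifiers.

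TPM carries no counts, so depth is unknown and no counting error can be given. limma 3.58.1 (R 4.3.3) was fitted to log2(TPM + 1) of genes at 1 TPM or more in at least 3 libraries, with 3 group means, a mean-variance trend and Benjamini-Hochberg adjustment over all 12058 genes, threshold 0.05. The Cont sEV library is assumed to vary like the other groups. In the main fit limma estimated infinite prior degrees of freedom. Each variance was therefore that of the mean-variance trend, and a gene's own spread among libraries did not enter its SE or p. The code was tested on simulated data. Coding identity used the longest open reading frame of each gene's longest coding transcript, globally aligned. Alternatives were other pseudocounts, filters and scalings, a replicate block and leaving out each library.

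The members and lists were chosen with earlier results of these data known. Named were all members, each list's 4 most abundant genes (of the marker lists only those that bear on a result) and any called gene, and the 5 genes most like Cbr2, Cbr3 and Hmox1 (mean of 5 TPM or more, predicted genes left out).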

Additional observations from a re-analysis of the deposited data

How the results depend on the processing

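Over all 15 alternative settings the TIS sEV minus saline difference relative to the median gene stayed positive for Cbr2 (1.99 to 3.32) and Cbr3 (1.82 to 2.98). The sign changed in 3 of 15 settings for Cbr1, 2 for Srxn1 and 1 each for Hmox1 and Gclc. The members' median was -0.27 for TIS sEV against saline and 0.081 for TIS sEV against Cont sEV with no filter on low values, where the median gene comes from 25046 genes, and leaving out 1 library moved it over 0.075 to 0.34 and 0.24 to 0.63. Depth is unknown, and with 1 Cont sEV library no spread of that group can be measured.

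The count of all genes called was less stable than these values. For TIS sEV against saline it was 62, and 0 with no filter, with size factors, with protein-coding TPM and with quantile normalization (1230, 1776, 1714 and 1755 genes at an unadjusted p under 0.05 in limma), 30 with a filter of 5 TPM and 7 to 353 with 1 library left out (353 when TIS sEV replicate 1 was dropped, 105 for TIS sEV 2, 35 for TIS sEV 3, 14 for saline 2 and 7 for saline 3). For Cont sEV against saline it was 25, and 233 with no filter, 13 with 5 TPM, 1 with size factors, 0 with protein-coding TPM (1720 unadjusted), 2 with quantile normalization and 11 to 197 with 1 library left out (197 for TIS sEV 2, 11 for saline 2 and 13 for saline 3). For TIS sEV against Cont sEV it was 27, and 246, 9, 1, 0 (420 unadjusted) and 1 in the same order, and 10 to 103 with 1 library left out (62 for TIS sEV 1, 103 for TIS sEV 2, 16 for TIS sEV 3, 12 for saline 2 and 10 for saline 3). The prior degrees of freedom, which set the weight of limma's trend against a gene's own spread, also differed. They were infinite in the main fit and with the filter of 5 TPM. They were 1.77 with no filter, 3.0 with size factors, 4.05 with protein-coding TPM and 2.82 with quantile normalization. The cause was not tested. With a replicate block the counts were 14, 9 and 5. Same-numbered saline and TIS sEV libraries had correlations of their deviations from the group means of -0.35, -0.01 and 0.07. Of the 6 libraries 1, TIS sEV replicate 3, correlated best with its own number, so no pairing by number was seen. Deviations from a mean of 3 libraries depend on each other, so this check cannot exclude that same-numbered libraries were handled together. In the further lists, Aldh3a2 (relative difference -1.35) was called for Cont sEV against saline when TIS sEV replicate 2 was left out, and Gpx2 was called in both Cont sEV comparisons with no filter.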

Other observations

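Several Nrf2 targets outside the members were highest in TIS sEV replicate 1, the library with the highest TPM of Nqo1 (4.78), Hmox1 and Srxn1. Aldh3a1, an aldehyde dehydrogenase, was 10.4 TPM there and at most 1.09 TPM in the 6 other libraries. It did not pass the filter on low values and is not among the 33 tested targets counted below. Gsta1, a glutathione transferase, was 4.43 TPM there and at most 1.51 TPM elsewhere. Its relatives Gsta4 and Gstm2 were 37.9 and 42.1 TPM there, against at most 24.7 and 24.2 TPM elsewhere. Divided by size factors, Gstm2 was nearly equal in TIS sEV replicates 1 and 2 (34.3 and 34.2). Hmox1 on that scale was highest in TIS sEV replicate 2 (124, against 97.5 in replicate 1). Of the 33 tested further targets, 8 had their highest TPM in that library (24.2%), as did 3 of the 9 tested members and 9.25% of all genes tested. After division by size factors the count was 9 of 33 (27.3%) against 8.77% of all genes tested, and 12 of 33 (36.4%) were highest in TIS sEV replicate 2 against 21.3%. These genes were picked out after their values were seen, and the count was not tested. In TIS sEV replicate 1 Cbr2 and Cbr3 were the lowest of the 3 TIS sEV libraries.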
